A study of Mus musculus with 12 samples.

Results

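Fat cells, or adipocytes, store triglyceride in lipid droplets and secrete hormones such as adiponectin, and a small set of genes marks them in most tissues. A group of 10 such genes is described here in cultured chondrocytes, or cartilage cells, from mouse ribs. It holds Lrg1 (Entrez 76905), Fabp4 (11770), Car3 (12350), Gpd1 (14555), Plin1 (103968), Plin4 (57435), Adipoq (11450), Cidec (14311), Pparg (19016) and Lpl (16956). They are 10 of the 17922 genes of the deposited expression table, all 10 were found there by symbol, and they were chosen by their read counts in cells deleted for lactate dehydrogenase A, which were higher than in control cells. Their values in that comparison are therefore a description and carry no test. The comparison in cells without Acly, which did not enter the choice, is tested.

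RNA sequencing covered 12 samples in 4 groups of 3. LDH knockout cells came from mice at postnatal day 5 (P5) with both Ldha alleles floxed, 1 Ldhb allele deleted, and the Cre recombinase under the collagen II driver Col2-Cre, which is active in cartilage cells. Acly knockout cells came from embryos at E18.5 with Col2-Cre and both Acly alleles floxed. Each knockout had control littermates of its own age, whose genotype the labels give only as control. All mice were of a mixed strain in which C57BL/6 dominates. The cells were freed with collagenase, grown overnight in serum, and their polyadenylated RNA was sequenced. The question put by the study is what lower glycolysis, or less acetyl-CoA in the cytoplasm, means for the skeleton as it forms. Nothing in the labels says whether the 3 samples of a group were separate animals, so the tests measure only the spread between these samples. A driver active in cartilage cells also means that the deletion in any other cell of the culture is not known from the labels.

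The 10 genes cover the main tasks of a fat cell. Pparg encodes the nuclear receptor that drives adipocyte differentiation, and with the C/EBP factors it switches on many of the other genes. Plin1, Plin4 and Cidec encode proteins of the lipid droplet surface. Fabp4 carries fatty acids in the cytosol and Lpl frees them from circulating lipoproteins. Gpd1 makes the glycerol 3-phosphate backbone of triglyceride, and Car3 is a carbonic anhydrase that is abundant in fat and muscle. Adipoq encodes the hormone adiponectin, and Lrg1 a secreted leucine-rich glycoprotein that is also known from liver and inflammation.

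The stretch of 250 bases before the start of transcription was examined because most of these genes moved together within groups of libraries, as described further on. Pparg and Lpl did not follow the others there. RefSeq sequences on the build GRCm38.p6 matched 6 of the 10 genes, with 9 promoters: Plin1, Adipoq, Plin4 and Lrg1 had 1 each, Cidec had 2 and Pparg had 3. Fabp4, Car3, Gpd1 and Lpl were not matched. The letters TTGCNNAA, as bound by C/EBP factors, were searched on both strands and are in capitals below. Plin1 and promoter 3 of Pparg are shown for their 2 matches each, and Adipoq and Lrg1 as promoters of strongly differing genes that hold none.
Plin1 (chr7:79732777-79733026, strand -): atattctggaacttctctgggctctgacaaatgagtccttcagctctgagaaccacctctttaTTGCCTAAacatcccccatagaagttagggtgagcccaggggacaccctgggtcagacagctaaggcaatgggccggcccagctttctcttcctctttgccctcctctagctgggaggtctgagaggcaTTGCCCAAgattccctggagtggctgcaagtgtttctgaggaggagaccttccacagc
Pparg, promoter 3 (chr6:115421816-115422065, strand +): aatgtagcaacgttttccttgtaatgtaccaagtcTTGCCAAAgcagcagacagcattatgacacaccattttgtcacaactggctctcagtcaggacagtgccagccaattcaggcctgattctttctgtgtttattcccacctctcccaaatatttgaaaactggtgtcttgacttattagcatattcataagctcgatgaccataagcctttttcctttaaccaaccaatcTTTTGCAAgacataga
Adipoq (chr16:23146286-23146535, strand +): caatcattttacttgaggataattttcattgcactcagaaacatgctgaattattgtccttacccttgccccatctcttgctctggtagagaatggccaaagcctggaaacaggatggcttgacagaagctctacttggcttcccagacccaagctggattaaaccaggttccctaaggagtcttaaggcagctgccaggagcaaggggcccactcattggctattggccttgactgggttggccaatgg
Lrg1 (chr17:56121947-56122196, strand -): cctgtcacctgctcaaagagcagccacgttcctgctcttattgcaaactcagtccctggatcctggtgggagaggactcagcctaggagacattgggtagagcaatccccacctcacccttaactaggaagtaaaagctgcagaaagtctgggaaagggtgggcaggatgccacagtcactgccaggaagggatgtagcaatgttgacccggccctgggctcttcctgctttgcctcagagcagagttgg

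Counted back from the start of transcription, the Plin1 matches lie at -187 to -180 and -58 to -51. In promoter 3 of Pparg they lie at -215 to -208 and, on the opposite strand, at -16 to -9. Promoter 2 of Cidec has 1 match. Bases just after the start of this promoter were not found in a GENCODE transcript of the gene, while those of the other promoters were. Across all 32851 promoters in the RefSeq table, 9.56% hold these letters. The core letters of nuclear receptor sites, AGGTCA, are in promoters 1 and 2 of Pparg and in 14.0% of all promoters. The direct repeat AGGTCANAGGTCA, which is built from those letters and is the form bound by PPAR with its partner RXR, is in none of the 9 and in 0.033% of all. The TATA letters TATAAA, found on either strand in 12.4% of all promoters, are in promoter 2 of Pparg on the opposite strand only, at -29 to -24. A match of letters is a description of the sequence and shows no binding.

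Libraries were even in depth, at 26362407 to 28154143 expected counts each. Levels are given as CPM, a library's counts of a gene per 1000000 counts, after TMM scaling across all 12 libraries, and 3 counts, the lowest amount taken as detected, correspond to 0.107 to 0.114 CPM before that scaling. Ldha averaged 91.8 CPM in LDH knockouts against 894 CPM in P5 controls, and Acly averaged 69.9 CPM in its knockouts against 187 CPM. For Ldhb the means were 16.0 CPM (LDH knockout) and 12.4 CPM (control), a difference that did not pass the threshold (edgeR adjusted p = 0.115). Of the E18.5 libraries, Acly knockout replicate 2 stood off, at 35.4 on the first principal component against 60.4 to 70.8. Summed over 4 Y-linked genes, and without TMM scaling, LDH control replicates 1 and 2 held 93.0 and 102 CPM, but control replicate 3 held 0.590 CPM and LDH knockouts at most 0.0367 CPM. The sum was 74.3 and 82.8 CPM in Acly knockout replicates 2 and 3, 121 CPM in Acly control replicate 2, and at most 2.83 CPM in the other 3 E18.5 libraries. The 10 cartilage markers, which include collagen II and aggrecan, summed to 8055 CPM or more in every library, and in LDH knockouts they ranged from 19250 to 28990 CPM against 10590 to 12280 CPM in controls. Of the 9 cartilage markers tested in that comparison, 6 rose. The 9 bone-cell markers summed to 22.6 to 38.0 CPM in LDH knockouts, where Dmp1 was at 0, and 68.8 to 88.3 CPM in controls, and 2 of 7 tested fell (Sp7 and Bglap2). In bulk RNA, fewer cells of a type and less RNA per cell cannot be told apart, so all levels below are levels in the culture.

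The droplet proteins Plin1, Cidec and Plin4 were near the detection limit or low in P5 controls and clearly present in LDH knockouts. Plin1, perilipin 1, coats the droplet and gates lipolysis. Its level was 4.96, 7.87 and 2.83 CPM in LDH knockout replicates 1 to 3 and 0.112, 0.225 and 0.197 CPM in the controls, so the groups did not overlap. This is a log2 difference of 4.84 ± 0.48 (SE), or 28.6-fold, with 3, 6 and 5 counts in the controls. Cidec, which fuses small droplets into larger ones, was at 2.15, 3.85 and 1.40 CPM in LDH knockouts. In the controls it had 5, 0 and 2 counts, which is at or below the detection limit in 2 of the 3 libraries. Its fitted log2 difference of 4.72 ± 0.66 leans on these few counts and was 5.83 without LDH control replicate 1. Plin4, perilipin 4, which coats new droplets, was measurable throughout, at 11.5, 14.6 and 6.40 CPM in the knockouts and 2.16, 1.42 and 2.29 CPM in controls. Every knockout library was above every control library, with a log2 difference of 2.46 ± 0.31, or 5.52-fold.

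Of the genes of fatty acid handling, Fabp4 differed widely at P5 and Lpl little. Fabp4 stood at 12.2, 26.7 and 6.52 CPM in the knockouts and 1.45, 0.786 and 1.5 CPM in controls, without overlap. The log2 difference was 3.60 ± 0.50, or 12.1-fold. Lpl, lipoprotein lipase, is also made by cells other than adipocytes. Its values were 44.7, 51.0 and 50.5 CPM in LDH knockouts against 36.5, 46.6 and 30.5 CPM in controls. LDH control replicate 2 was above LDH knockout replicate 1, so Lpl is the 1 gene of the 10 whose P5 groups overlapped, and its log2 difference was 0.36 ± 0.14.

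Both cytosolic enzymes were higher in every LDH knockout library than in any control. Gpd1, the glycerol 3-phosphate dehydrogenase of the cytosol, was at 20.1, 33.9 and 10.3 CPM against 2.61, 2.06 and 2.80 CPM, a log2 difference of 3.11 ± 0.39. Car3 was at 13.3, 27.6 and 6.71 CPM against 0.634, 0.936 and 1.18 CPM, a log2 difference of 4.11 ± 0.51. In both, knockout replicate 2 was the highest and knockout replicate 3 the lowest, still above all 3 controls. Car3 is also a gene of skeletal muscle, whose 8 markers summed to 27.5 to 45.9 CPM in LDH knockouts and 29.3 to 48.6 CPM in controls. Of the 7 muscle markers tested, 1 (Tnnt3) rose.

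The secreted products differed too. Adipoq, a hormone gene that fat cells alone are known to express at a high level, was at 3.35, 7.0 and 1.12 CPM in the knockouts and 0.485, 0.262 and 0.237 CPM in controls. The knockout libraries spread over a wide range, yet the lowest was above the highest control, and the log2 difference was 3.52 ± 0.65. Lrg1 was at 11.4, 16.3 and 5.0 CPM in the knockouts and 0.448, 0.225 and 0.592 CPM in controls. Its log2 difference was 4.68 ± 0.49, or 25.7-fold. Lrg1 is also made by neutrophils. The 8 neutrophil markers summed to 2830 to 7273 CPM in LDH knockouts and 3277 to 4933 CPM in controls, nearly all of it Lcn2, while S100a8 averaged 1.69 and 1.22 CPM. By edgeR 0 of 5 neutrophil markers tested passed the threshold at P5, 1 was at an unadjusted p under 0.05, in the lower direction, and DESeq2 called 0.

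Pparg is the regulator of the set. Its level was 9.81, 7.47 and 9.58 CPM in the knockouts and 5.82, 6.59 and 5.84 CPM in controls, so all knockouts were above all controls by a log2 difference of 0.56 ± 0.15, or 1.47-fold. Unlike the other genes it was lowest in knockout replicate 2.

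**Figure D1:**
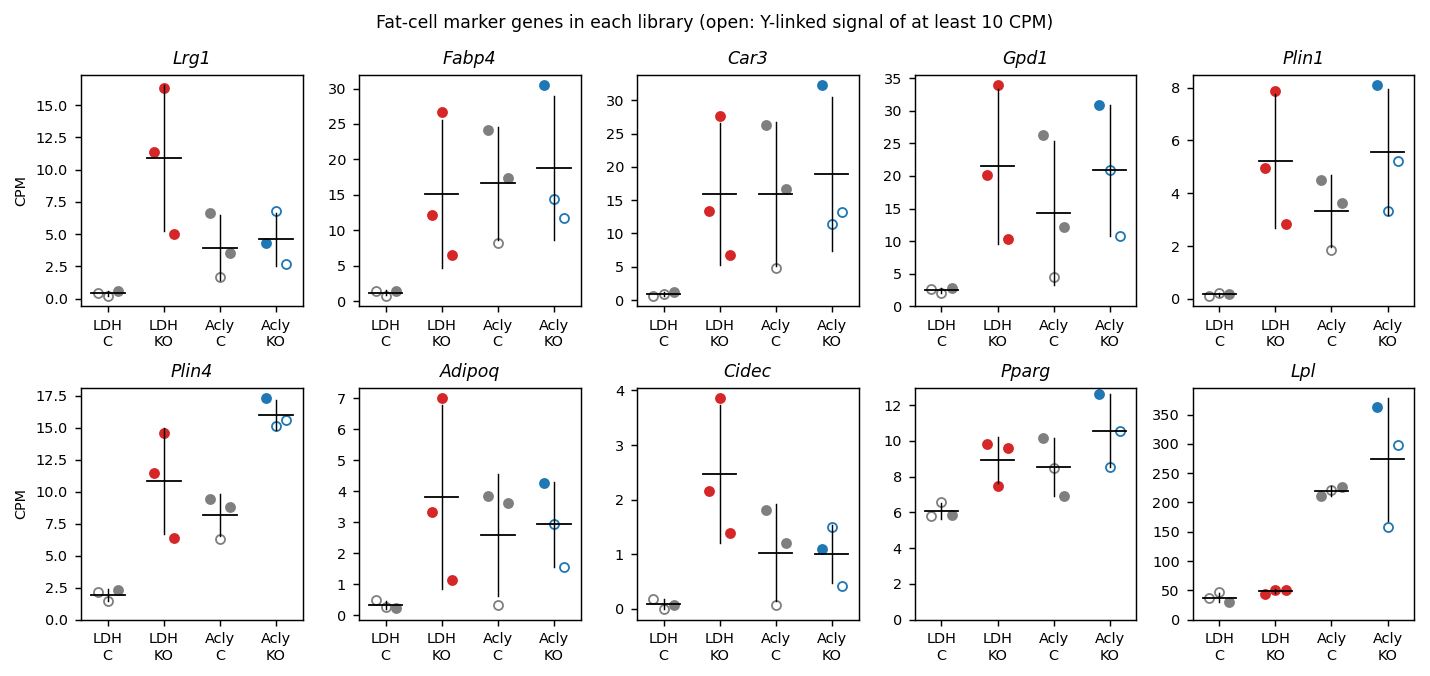
Level of each of the 10 genes in CPM (vertical axis, linear, its own scale in each panel) in the 4 groups, with 1 point per library, the mean as a horizontal line and the SD as a vertical line, and open points for libraries with at least 10 CPM of Y-linked signal. LDH knockouts are above all LDH controls for 9 genes, and the 2 E18.5 groups overlap for every gene except Plin4.

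As a group, 9 of the 10 genes were higher in all 3 LDH knockouts than in all 3 controls, which 12.2% of the 13321 tested genes were (12.1% were lower in all 3). By edgeR 8 of 10, all but Pparg and Lpl, passed an adjusted p of 0.05 as higher. Of all tested genes 2.49% passed, 1.43% as higher and 1.07% as lower. With a library left out, Adipoq passed in 1 of 6 fits, that without LDH knockout replicate 3, and its edgeR adjusted p was 0.0598 or higher in the other 5. Fabp4 and Cidec did not pass without LDH control replicate 3, with edgeR adjusted p of 0.0543 and 0.0557. The median log2 difference of the 10 was 3.56, against 0.01 over all tested genes. Because this contrast chose the genes, nothing is read from those shares, or from the calls and adjusted p values of single genes. The fits with a library left out describe only how far a value leaned on that library. All 10 passed the filter on low counts, and 6 of them had 10 or more counts in each of the 3 LDH controls.

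The LDH knockouts had next to no Y-linked signal while 2 of the 3 controls had it, so Y-linked signal moves with the genotype here. Control replicate 3 was the 1 control library with little of it. Relative to that library, the lowest LDH knockout was 14.3 times as high for Plin1, 8.45 times for Lrg1 and 5.67 times for Car3. It was 4.75 times as high for Adipoq, 4.34 times for Fabp4, 3.68 times for Gpd1 and 2.80 times for Plin4. Plin1 had 5 counts and Adipoq 6 in that control. For Lpl the ratio was 1.47 and for Pparg 1.28, and Cidec had 2 counts in that control, too few for a ratio. With the Y-linked split as a covariate, 4 genes in all passed the threshold at P5 in place of 332, and none of the 10 was among them, while their log2 differences in that fit lay between 0.61 and 4.88. With 1 control library on that side, the ratios have no replicate check, and they come from the values that chose the genes. The part of the Y-linked split in these differences was not tested.

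Markers of other cell types were measured in the same libraries. The 8 macrophage markers summed to 76.7 to 152 CPM in LDH knockouts and 75.0 to 124 CPM in controls, and the 8 endothelial markers to 15.6 to 22.6 CPM and 12.8 to 21.9 CPM. With edgeR, 0 of 8 macrophage markers and 0 of 8 endothelial markers passed the threshold, 0 and 1 did at an unadjusted p under 0.05, and DESeq2 called 0 of either. The 5 Schwann cell markers summed to 25.4 to 39.3 CPM in LDH knockouts, where Pmp2 was at 0, and 12.6 to 17.9 CPM in controls. Of the 3 tested, 1 rose, S100b, which cartilage and fat cells also express (log2 difference 1.60 ± 0.23, edgeR adjusted p = 0.00965). The 6 red cell markers summed to 9.89 to 25.7 CPM against 21.6 to 35.8 CPM. Of 3 tested, 0 passed with edgeR, 2 were lower at an unadjusted p under 0.05 and DESeq2 called 0, with log2 differences of -0.99 to -0.89. Of the bone-cell markers named above, Bglap2 fell by 2.40 and Sp7 by 1.22 on the log2 scale (edgeR adjusted p = 0.0156 and 0.0164). The part of any of these cell types in the difference of the 10 genes was not tested.

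In the Acly comparison, which took no part in choosing the genes, 0 of the 10 passed the threshold by edgeR, where 0.136% of 13973 tested genes did, 0.0573% as higher and 0.0787% as lower. At an unadjusted p under 0.05 there was 1, Plin4, beside 2211 of all 13973 tested genes. DESeq2 called that 1 of the 10, and 247 of all 13973. The log2 differences were positive for 9 of the 10, with a median of 0.29 against -0.00 over all tested genes. Plin4 was at 17.3, 15.1 and 15.6 CPM in Acly knockouts and 9.45, 6.29 and 8.77 CPM in their controls. It was the 1 gene of the 10 whose E18.5 groups did not overlap, where 9.73% of all tested genes had every knockout above every control and 12.4% every knockout below. Its log2 difference was 0.99 ± 0.17 with an edgeR adjusted p of 0.0859. Over the alternative analyses, which used edgeR, DESeq2 or limma, the adjusted p of the test used ranged from 4.42e-05 to 0.370. Without Acly knockout replicate 2, the library that stood off, the edgeR adjusted p of Plin4 was 0.0196 at a log2 difference of 1.01.

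The other droplet genes overlapped between the E18.5 groups. Plin1 was at 8.10, 3.35 and 5.23 CPM in Acly knockouts and 4.51, 1.84 and 3.62 CPM in controls (log2 difference 0.75 ± 0.38, edgeR adjusted p = 0.354). Cidec was at 1.10, 1.49 and 0.424 CPM against 1.81, 0.0695 and 1.21 CPM, the lowest of these being 2 counts in Acly control replicate 2 (-0.01 ± 0.78, edgeR adjusted p = 0.994). Acly control replicate 2 was the 1 library of the 6 within the range of the P5 controls.

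Fabp4 was at 30.5, 14.4 and 11.7 CPM in Acly knockouts and 24.1, 8.30 and 17.4 CPM in controls (0.19 ± 0.42, edgeR adjusted p = 0.824). Lpl was at 364, 158 and 298 CPM against 211, 221 and 227 CPM (0.32 ± 0.24, edgeR adjusted p = 0.497). The low Lpl value is that of Acly knockout replicate 2, and without this library the log2 difference of Lpl was 0.59 with an edgeR adjusted p of 0.0195.

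Among the enzymes, Gpd1 was at 30.8, 20.9 and 10.8 CPM in Acly knockouts and 26.3, 4.52 and 12.1 CPM in controls (0.56 ± 0.55, edgeR adjusted p = 0.608). Car3 was at 32.3, 11.4 and 13.2 CPM against 26.3, 4.83 and 16.7 CPM (0.26 ± 0.55, edgeR adjusted p = 0.821). The spread within each E18.5 group was wider than the step between them.
Adipoq was at 4.28, 2.95 and 1.56 CPM against 3.84, 0.313 and 3.62 CPM (0.19 ± 0.68, edgeR adjusted p = 0.899), and Lrg1 at 4.31, 6.80 and 2.69 CPM against 6.64, 1.67 and 3.55 CPM (0.24 ± 0.48, edgeR adjusted p = 0.811). Pparg was at 12.6, 8.54 and 10.5 CPM in Acly knockouts and 10.2, 8.48 and 6.92 CPM in controls (0.32 ± 0.19, edgeR adjusted p = 0.409). With standard errors of 0.17 to 0.78 on the log2 scale, small differences were not detectable for most of these genes. Whether the LDH and Acly effects differ was not tested for the 10 genes, since the LDH effect chose them. Over all genes, that difference passed for 0.161% of 14251.

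**Figure D2:**
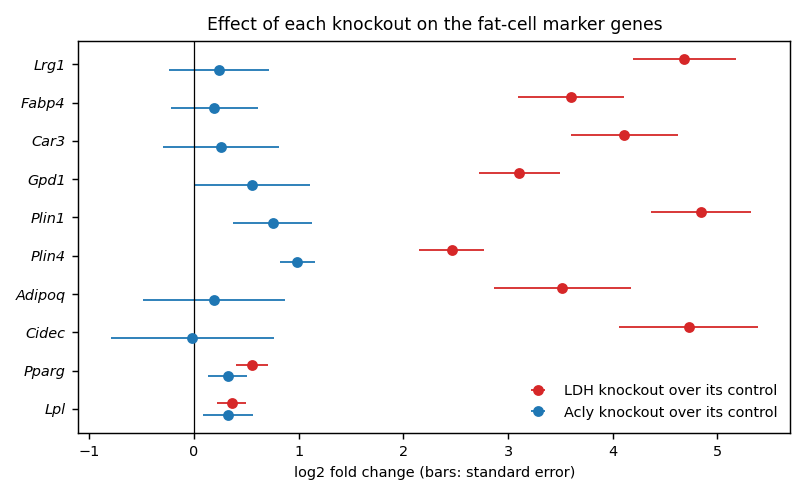
Log2 fold change of each knockout over its own control (horizontal axis) for the 10 genes, with the standard error as bars, red for LDH at P5 and blue for Acly at E18.5. The LDH values are a description of the contrast that chose the genes, at 2.46 or more for 8 of them, and the Acly values lie between -0.01 and 0.99.

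The ratio of mean CPM in E18.5 controls to that in P5 controls was 18.7 for Plin1, 17.4 for Car3, 13.3 for Fabp4, 11.6 for Cidec, 9.38 for Lrg1, 7.90 for Adipoq, 5.80 for Lpl, 5.74 for Gpd1, 4.17 for Plin4 and 1.40 for Pparg. For 8 genes all E18.5 controls were above all P5 controls, and Adipoq and Cidec overlapped through Acly control replicate 2. Set beside the LDH knockouts, the E18.5 controls were at 1.10 times the level of Fabp4, 1.0 times that of Car3, 0.953 times that of Pparg and 0.755 times that of Plin4. They were at 0.677 times the level of Adipoq, 0.666 times that of Gpd1, 0.637 times that of Plin1, 0.417 times that of Cidec and 0.363 times that of Lrg1, and at 4.51 times that of Lpl. Age, mouse line and any difference between the experiments coincide in this comparison and cannot be told apart. The P5 values are also those that chose the genes, which favours genes that are low in P5 controls, so the ratios are given without a test. Marker sums of other cell types differed as well, in both directions. The endothelial sum was 96.3 to 132 CPM in the E18.5 libraries and 12.8 to 22.6 CPM at P5. For muscle the sums were 158 to 374 CPM and 27.5 to 48.6 CPM. Fibroblast markers were lower at E18.5, with sums of 11240 to 15490 CPM against 32700 to 44910 CPM at P5. The neutrophil sum was lower too, at 271 to 844 CPM against 2830 to 7273 CPM, and most of it was Lcn2.

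Levels can be compared between genes on the TPM scale, which corrects for transcript length. In LDH knockouts Fabp4 led with 46.3 ± 31.1 TPM (mean ± SD, n = 3), followed by Lpl at 21.3 ± 1.59, Car3 at 18.7 ± 12.3, Lrg1 at 14.7 ± 7.42, Gpd1 at 13.7 ± 7.31, Pparg at 8.16 ± 1.33, Adipoq at 5.70 ± 4.34, Plin1 at 4.97 ± 2.34, Plin4 at 3.17 ± 1.20 and Cidec at 2.59 ± 1.23 TPM. Each gene in that order overlapped the next in its 3 libraries, in 9 of 9 steps. In P5 controls Lpl led with 17.0 ± 4.31 TPM, then came Pparg at 5.57 ± 0.800, Fabp4 at 3.89 ± 1.16, Gpd1 at 1.63 ± 0.197 and Car3 at 1.11 ± 0.301 TPM, and the steps between these 5 did not overlap. Lrg1 (0.580 ± 0.239 TPM), Plin4 (0.570 ± 0.108 TPM) and Adipoq (0.507 ± 0.214 TPM) overlapped each other, and Plin1 (0.177 ± 0.0611 TPM) overlapped Cidec (0.0967 ± 0.106 TPM). In E18.5 controls Lpl led at 110 ± 7.44 TPM, before Fabp4 at 58.2 ± 26.0 and Car3 at 21.4 ± 13.9 TPM, and Cidec was again last at 1.23 ± 1.05 TPM. There 7 of 9 steps overlapped, and in Acly knockouts, where Lpl was at 132 ± 56.1 and Fabp4 at 63.6 ± 36.8 TPM, 8 of 9 did.

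Within a group, the same libraries tended to be high or low for most of the genes. LDH knockout replicate 2 was the highest of its group for 9 of the 10 genes, which it was for 33.7% of all genes, and LDH knockout replicate 3 the lowest for 8, against 35.7% of all genes. Acly control replicate 1 was the highest for 9 (37.8% of all genes) and Acly control replicate 2 the lowest for 8 (34.7%). Acly knockout replicate 1 was the highest for 8 (36.5%). In the P5 controls the highest library changed from gene to gene.

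This was measured as the Pearson correlation of log2 CPM over all 12 libraries after subtracting each group's mean, which removes the group differences that chose the genes. Over the 45 pairs of genes the median r was 0.693, 27 pairs were above 0.5 and 9 were below 0. The highest was 0.954, for Plin1 with Car3, and the lowest -0.472, for Lpl with Lrg1. Spearman's rho had a median of 0.636, and the median r was 0.699 in LDH libraries alone and 0.772 without Acly knockout replicate 2. These points share library depth and composition, and the values are a description with no test.

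Car3 followed the mean of the other 9 genes most closely, with r = 0.950, then Gpd1 with 0.936, Fabp4 with 0.927, Adipoq with 0.878 and Plin1 with 0.845. Of the 12701 other genes averaging 1 CPM or more, 0.00787% reached the r of Car3, Gpd1 or Fabp4, and 0.0866% that of Adipoq. Plin4 had 0.755, Cidec 0.724 and Lrg1 0.709, values that 0.827% to 1.46% of other genes reached. Without the 2 libraries farthest from the median, Acly control replicate 2 and LDH knockout replicate 3, r was 0.896 for Car3, 0.870 for Gpd1 and 0.891 for Fabp4, but 0.437 for Lrg1 and 0.503 for Cidec. Pparg, with r = 0.00895, and Lpl, with 0.0538, did not follow the others. About as many other genes lay above as below them, at 51.1% and 45.9%.

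**Figure D3:**
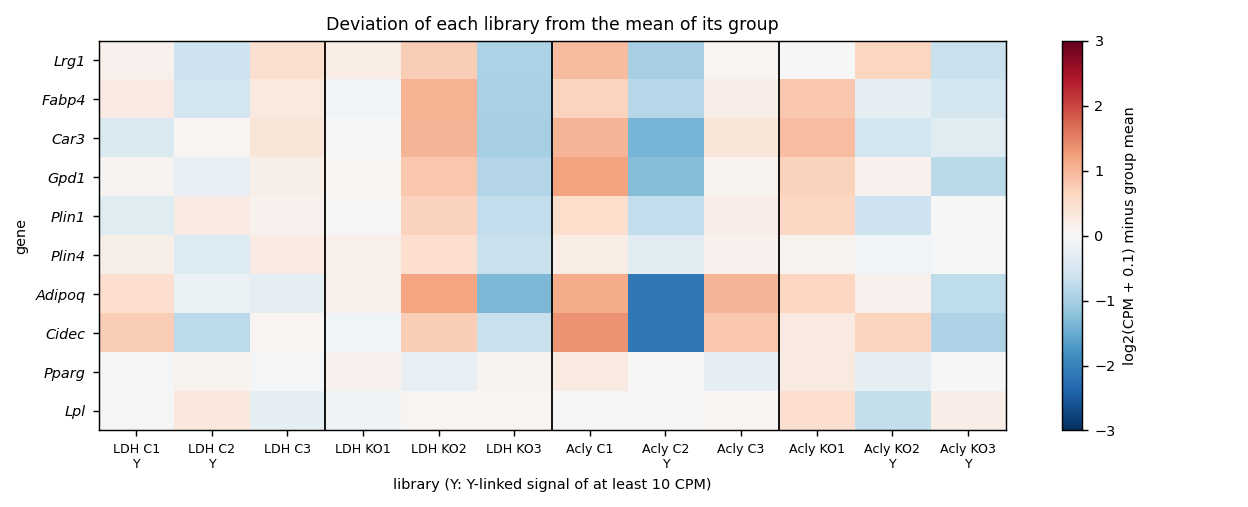
Deviation of each library (columns) from the mean of its group for each of the 10 genes (rows), as log2(CPM + 0.1) on a colour scale from -3 to 3, red above and blue below the group mean, with Y marking libraries of at least 10 CPM of Y-linked signal. LDH knockout replicate 2 and Acly control replicate 1 are red for most genes, LDH knockout replicate 3 and Acly control replicate 2 blue, and the rows of Pparg and Lpl are pale or follow another pattern.

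Several measured quantities moved with this shared variation. Across the 12 libraries, after removal of group means, the mean of the 10 genes correlated with the mean of 75 other fat-cell genes at r = 0.734 (rho 0.706). It had r = 0.397 with macrophage markers, 0.218 with muscle markers, 0.0993 with fibroblast markers, 0.0785 with cartilage markers and -0.211 with endothelial markers. With the 4 Y-linked genes it had r = -0.699 (rho -0.851), so libraries with Y-linked signal tended to be lower than others of their group. At E18.5 all 3 libraries with little Y-linked signal were above all 3 with much of it for Fabp4 (17.4 to 30.5 against 8.30 to 14.4 CPM), Car3 (16.7 to 32.3 against 4.83 to 13.2 CPM) and Adipoq (3.62 to 4.28 against 0.313 to 2.95 CPM). The other 7 genes overlapped. Each side of that split mixes knockouts and controls. With the split as a covariate, 0 of the 10 and 0 of all 13973 tested genes passed in the Acly comparison by edgeR. At an unadjusted p under 0.05 were 5 of the 10, with log2 differences of 0.38 for Pparg to 1.22 for Gpd1. Of all 13973 genes, 1398 were at that p.

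A wider set of fat-cell genes was then set beside the 10. Of 81 such genes in 7 lists, 80 were in the table and 67 passed the filter at P5. With edgeR 6 rose and 0 fell, 8.96% of those tested against 2.49% of all genes. At an unadjusted p under 0.05 there were 20 higher and 7 lower, beside 1304 higher and 1310 lower of all 13321 tested genes. DESeq2 called 12 of the 67 higher and 2 lower, and 471 higher and 430 lower of all 13321. The median log2 difference of the 67 was 0.07, against 0.01 over all tested genes, with 39 higher and 28 lower. These lists were put together with results of these data known, so the counts are a description.

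Most of the genes that rose encode secreted proteins or take part in hormone responses, a list in which 4 of 11 tested genes passed. Cfd, which encodes the serum protease adipsin, was at 5.46, 8.97 and 1.55 CPM in the knockouts and 0.149, 0.112 and 0.0395 CPM in controls, whose libraries hold 4, 3 and 1 counts (log2 difference 5.65 ± 0.76, edgeR adjusted p = 0.00788). Rbp4, the carrier of retinol in blood, was at 20.3, 30.0 and 17.1 CPM against 9.55, 7.41 and 8.80 CPM (1.39 ± 0.20, edgeR adjusted p = 0.011). Nnat, neuronatin, had a log2 difference of 3.48 ± 0.70 (edgeR adjusted p = 0.035), with 10, 1 and 1 counts in controls, and 5.33 without LDH control replicate 1. Npr3, the clearance receptor for natriuretic peptides, had 1.14 ± 0.24 (edgeR adjusted p = 0.040). From the list of fatty acid uptake and triglyceride synthesis, 1 of 14 rose: Pck1, which supplies carbon for glycerol (3.89 ± 0.72, edgeR adjusted p = 0.026), with 0, 7 and 1 counts in controls, and 6.03 without LDH control replicate 2. From the list of fatty acid synthesis, 1 of 8 rose: Scd1, the stearoyl-CoA desaturase (1.01 ± 0.22, edgeR adjusted p = 0.043).

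The remaining lists had no call with edgeR. Among 11 tested genes of the droplet and of lipolysis, 4 were at an unadjusted p under 0.05, though none passed. Mgll, the monoacylglycerol lipase, had a log2 difference of 0.80, G0s2, an inhibitor of lipolysis, 0.32, and Plin2, the droplet coat protein of most cell types, -0.30. Of 13 transcription regulators, 6 were at an unadjusted p under 0.05, with 1.38 for Cebpd, 0.78 for Nr1h3 and -0.37 for Ebf1. DESeq2 called Mgll, Nr1h3, Ebf1 and the progenitor marker Pdgfra among its 14 genes outside the 10. Of 8 progenitor markers 1 was at an unadjusted p under 0.05, with -0.48 for Pdgfra, 0.31 for Cd34 and 0.47 for Ly6a. The brown fat genes that could be tested were Elovl3 with -0.41 and Dio2 with -0.13, of which 0 were at an unadjusted p under 0.05 and DESeq2 called 0. The 11 tested droplet and lipolysis genes had a median log2 difference of -0.02.

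The count of 6 depended on single libraries. It was 2 without LDH knockout replicate 1, 15 without LDH knockout replicate 3, 3 without LDH control replicate 1, 3 without LDH control replicate 2 and 0 without LDH control replicate 3. It was also 0 with the Y-linked split as a covariate. In the Acly comparison 73 of these genes were tested and 1 fell, Angptl4, an inhibitor of lipoprotein lipase, by 0.81 on the log2 scale (edgeR adjusted p = 0.0313). Leaving out Acly knockout replicate 1 or 3, or any of the 3 Acly controls, ended that call, and leaving out Acly knockout replicate 2 gave 4 calls.

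**Figure D4:**
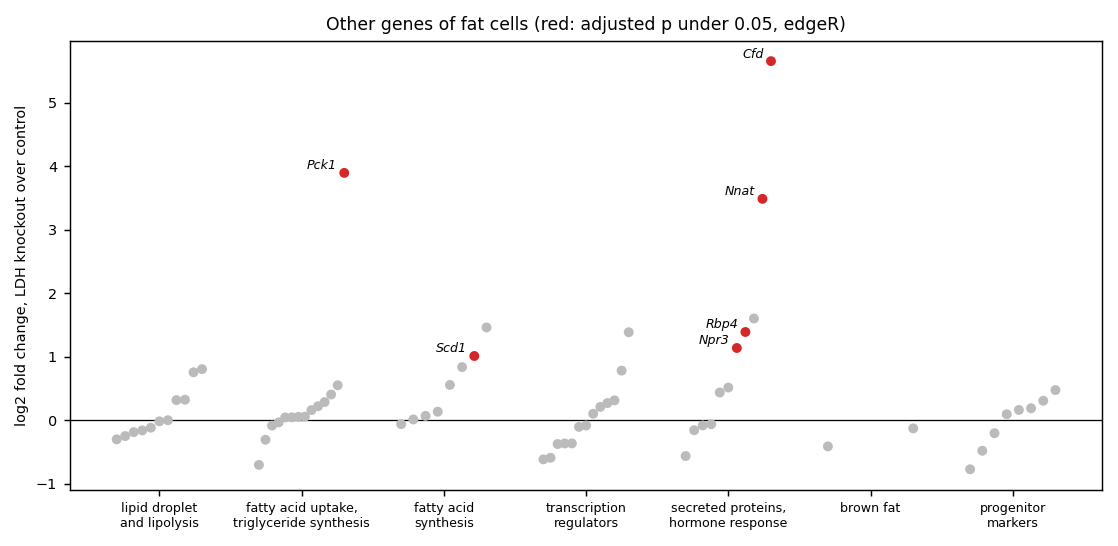
Log2 fold change of LDH knockouts over controls (vertical axis) for 67 fat-cell genes outside the 10, in 7 lists along the horizontal axis, with genes past an edgeR adjusted p of 0.05 in red and named. The 6 red points are all above 0 and 4 of them are in the list of secreted proteins and hormone response.

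The 10 genes lie on 7 chromosomes: Lrg1 and Plin4 on 17, Fabp4 and Car3 on 3, Cidec and Pparg on 6, Gpd1 on 15, Plin1 on 7, Adipoq on 16 and Lpl on 8. Plin4, Plin5 and Lrg1 follow each other on chromosome 17. Plin5, another droplet coat protein, had 1, 6 and 2 counts in LDH knockouts and 0 in each control, too few for a fold. Of 37 genes beside the 10, taken as up to 2 on each side, 25 were tested at P5 and 1 passed, Ttll3 near Cidec, which fell by 0.55 on the log2 scale (edgeR adjusted p = 0.027). The log2 differences of the 25 ranged from -0.55 to 0.55 with a median of 0.07. At E18.5, 0 of 29 passed with edgeR, 6 were at an unadjusted p under 0.05 and DESeq2 called 0. Of all 13973 genes tested there, 2211 were at an unadjusted p under 0.05.

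**Figure D5:**
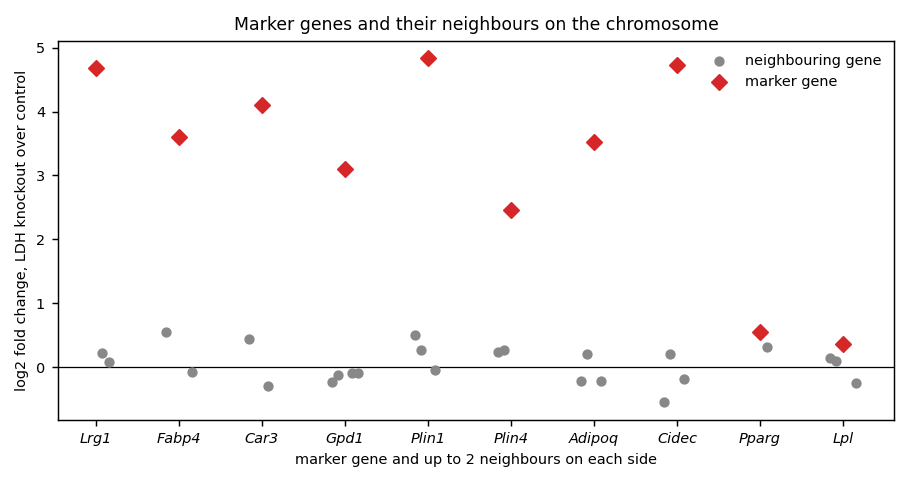
Log2 fold change of LDH knockouts over controls (vertical axis) for each of the 10 genes (red diamonds) and for up to 2 tested protein-coding neighbours on each side (grey points). The grey points lie between -0.55 and 0.55 and the red ones between 0.36 and 4.84.

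Outside the 10, the genes whose variation within groups was most like the mean of the 10, over 12 libraries, were R3hcc1l with r = 0.960, Sod1 with 0.927, Tnfrsf14 with 0.925, Enpp5 with 0.919, Slc36a2 with 0.896, Sf3b2 with 0.888, Ssrp1 with 0.882, Serbp1 with 0.882, Tsnax with 0.881 and Sf3a3 with 0.875. Slc36a2, a proton-coupled amino acid transporter, had a P5 difference of 2.58 ± 0.73 on the log2 scale (edgeR adjusted p = 0.0969), and the other 9 had between -0.38 and 0.22. The highest values among the other fat-cell genes were 0.870 for Cfd, 0.842 for Retn, the gene of the hormone resistin, and 0.811 for Lipe, the hormone-sensitive lipase. Lipe followed the 10 within groups while its P5 difference was -0.00 ± 0.13 on the log2 scale.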

How the data were processed

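Primary rib chondrocytes of 12 samples were measured by RNA-seq. The submitters' processing notes name HISAT2 2.0.4 and the build mm9. The counting program, annotation and use of strand are not given in the sources used here. The deposited table holds read counts, FPKM and TPM for each gene and sample. The counts deposited by the authors are not whole in 7.32% to 8.16% of values, so they were handled as estimated counts, in which shared reads are split, and rounded. TPM values deposited by the authors served for levels between genes, and their FPKM values for an alternative test with limma 3.58.1. Of the gene identifiers, 17814 of 17922 were found in RefSeq on GRCm38.p6, used for names and gene order, and 26 symbols turned into dates were restored. Of 164 listed genes 163 were in the table. Near-identical or overlapping genes are uncertain. The floor of 3 counts covers counting error only.

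Knockouts were set against the control of the same age in edgeR 4.0.16 (R 4.3.3), with TMM, filterByExpr, two-sided quasi-likelihood F tests and Benjamini-Hochberg adjustment over all tested genes at 0.05. The difference of both effects was fitted on all 12 samples. The standard error is the log2 fold change divided by the square root of F. Within-group deviations use log2 CPM with a prior count of 2. The method was tested on simulated data, where it recovered 100% of 200 genes changed 4-fold in each comparison (13320 genes tested at P5, 13987 at E18.5). Of the simulated calls 1.48% and 5.66% were false, and with DESeq2 10.3% and 8.68%. The changed genes were drawn only from genes with an average log2 CPM above 1, with the spread typical of their level. Recovery was therefore not measured for lower or more variable genes, such as Cidec at E18.5. Alternatives were DESeq2 1.42.0, other scalings, no filter, limma on log2(FPKM + 1) and log2(FPKM + 0.1), the replicate number as a block, a covariate for Y-linked signal of at least 10 CPM and leaving out each library. A fit of only libraries under 10 CPM of Y-linked signal was chosen after seeing the data. It holds 1 control library at P5 and 1 knockout library at E18.5, so only its effect sizes are used. Its count of called genes at E18.5 is listed among the alternatives, but nothing is read from it.

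The 10 genes and all lists were chosen with earlier results of these data known. Genes named beyond the 10 are the targeted genes, every listed fat-cell gene past the threshold, the 3 with the lowest P5 p in lists with fewer than 3 such genes, 2 neighbours on each side, and the 10 most alike in within-group variation among genes of at least 1 CPM. Plin5, Retn, Lipe, Slc36a2 and the markers Tnnt3, S100b, Pmp2, Bglap2 and Sp7 were singled out after their values were seen. Xist was not analysed here.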

Additional observations from a re-analysis of the deposited data

Results flagged for a closer look

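Plin2, the droplet coat protein found in most cell types, had differences of opposite sign in the 2 comparisons. All 3 LDH knockouts were below all 3 of their controls, with a log2 difference of -0.30 ± 0.10 (edgeR adjusted p = 0.145), and all 3 Acly knockouts were above all 3 of theirs, with 0.30 ± 0.10 (edgeR adjusted p = 0.257). Plin2 was picked from 31 genes, the 10 and the named fat-cell genes, by separation in opposite directions. Of all tested genes, 12.1% had every LDH knockout below every control and 9.73% had every Acly knockout above every control. The difference between both effects for Plin2, -0.58 ± 0.15, had an edgeR adjusted p of 0.154. Among 75 fat-cell genes outside the 10, 0 passed the threshold for that difference with edgeR, 25 were at an unadjusted p under 0.05 and DESeq2 called 7, Plin2 among them. Of all 14251 tested genes, 23 passed with edgeR, 1855 were at an unadjusted p under 0.05 and DESeq2 called 213. Age and deleted gene coincide in this difference and cannot be told apart.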

How the results depend on the processing

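Limits come first from Y-linked signal and single libraries. Genes called at P5 (332 in the analysis reported) numbered 901 with DESeq2 and 4 with the Y-linked covariate. With a library left out they numbered 95 (without LDH control replicate 3) to 1068 (without LDH knockout replicate 3). Only 1 control at P5 and 1 knockout at E18.5 had little Y-linked signal. Counts from a fit of only such libraries are therefore not given at P5 or for the difference of both effects. The E18.5 count from that fit, listed next, rests on 1 knockout library. It cannot be compared with the other counts, and nothing is read from it. At E18.5 the count of 19 became 11 without scaling (3 higher, 8 lower), 32 without a filter, 247 with DESeq2, 70 in libraries with little Y-linked signal, 0 (without Acly control replicate 1 or 3) to 132 (without Acly knockout replicate 2) with a library left out and 0 with the covariate, where 1398 were at an unadjusted p under 0.05. The difference of both effects gave 23, and 213 with DESeq2 and 6 with the covariate. With a library left out it gave 5 (without Acly control replicate 3) to 143 (without LDH knockout replicate 3). Of the 10 genes, 0 were called at E18.5, but 1 with DESeq2 and 0 to 2 with a library left out. The 6 other fat-cell genes called at P5 became 14 with DESeq2, 0 with the covariate and 0 to 15 with a library left out. The 1 at E18.5 became 2 without a filter, 6 with DESeq2, 2 with FPKM + 1 and 2 with FPKM + 0.1. It became 0 with the covariate and 0 to 4 with a library left out. The cause of these shifts was not tested.

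Same-numbered knockout and control samples correlated at 0.0491, -0.159 and 0.00619 at P5 and 0.00112, -0.215 and -0.222 at E18.5, and 1 and 0 of 6 samples correlated best with their own number, so the numbers were not taken as pairs. With the replicate block the counts were 362 at P5, 8 at E18.5 and 5 for the difference, and 0 other fat-cell genes were called at E18.5. Cidec at E18.5 then had a log2 difference of 0.16.

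For the 10 genes at E18.5, 15 of 150 values changed sign. With a library left out, Lrg1 ranged from -0.17 to 0.84, Fabp4 from -0.32 to 0.56, Car3 from -0.35 to 0.83, Adipoq from -0.33 to 0.59 and Cidec from -0.57 to 0.67. Lrg1 was -0.24 in libraries with little Y-linked signal, and Cidec was 0.25 with FPKM + 0.1 and 0.86 with the covariate. At P5, Dio2 ranged from -0.30 to 0.014 with a library left out.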
